A study of Mus musculus with 15 samples.

Results

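The 81 genes described here encode proteins of the cytosolic ribosome and were measured in the left 4th mammary tissue of 15 mice. They were taken by name, as Rpl or Rps followed by a number and at most a short suffix, or as Rplp0, Rplp1, Rplp2 or Rpsa, and had to be above 0 in at least 7 mice. Of 52526 genes with a unique name, 89 matched by name and 81 passed, 47 named for the large subunit and 34 for the small. RefSeq lists 79 of the 81 as protein coding, Rps3a3 as a pseudogene and Rps4l as a transcribed pseudogene. The study asked whether long exposure to BDE-47, a brominated flame retardant, alters mammary tissue. All mice were female nude mice (Crl:NU-Foxn1nu), older than 8 weeks at the start, whose Foxn1 mutation leaves them without a thymus and mature T cells. Of these, 7 received BDE-47 at 0.03 mg/kg/d in PEG300 with 1% DMSO from pumps under the skin for 16 weeks, and 8 received that vehicle alone from the same kind of pump. Some mice may also have carried a xenograft near the gland, which the labels do not give. Each mouse gave 1 library, and p-values measure the spread between these mice.

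Each ribosome joins 4 ribosomal RNAs to a fixed set of proteins, 1 copy of nearly every protein per particle, and builds all other proteins of the cell. The small subunit reads the mRNA, and the large subunit links the amino acids, with the stalk proteins Rplp0, Rplp1 and Rplp2 recruiting the elongation factors. Most ribosomal protein mRNAs begin with a 5′ terminal oligopyrimidine (TOP) tract, a run of C and U at the cap through which mTORC1 and the binding protein Larp1 set their translation together. These mRNAs are generally abundant, and for that reason several of the genes serve as references in expression studies. Mammalian genomes hold many processed copies of them.

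The start sites are shown first, since the TOP tract begins there. RefSeq windows of 300 bases on GRCm38.p6, 250 before and 50 from the annotated start on, were matched for 59 of the 81 genes. The start base itself lay inside a run of 8 or more C or T on the coding strand in 17 of the 59 genes (28.8%), against 4.59% of 27025 genes with a window and 1.45% of 69 mitochondrial ribosomal protein genes. This count leaves out shorter runs and rests on annotated starts, so it is not a count of TOP mRNAs. In each of the following stretches of 30 bases the start is the letter at position 16, and capitals mark the longest run of C or T. The first 6 show starts inside such a run, and the last 4 show starts outside one.
Rps21 (chr2:180257364-180257393, + strand): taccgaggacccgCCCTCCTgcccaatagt
Rps24 (chr14:24490663-24490692, + strand): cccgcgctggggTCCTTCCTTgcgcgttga
Rpl14 (chr9:120571502-120571531, + strand): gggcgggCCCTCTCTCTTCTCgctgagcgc
Rplp2 (chr7:141447636-141447665, + strand): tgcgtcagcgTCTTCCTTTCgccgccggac
Rpl28 (chr7:4792950-4792979, + strand): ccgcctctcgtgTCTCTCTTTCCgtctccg
Rps27 (chr3:90213634-90213663, − strand): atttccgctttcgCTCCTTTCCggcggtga
Rps19 (chr7:24884577-24884606, + strand): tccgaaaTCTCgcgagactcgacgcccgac
Rpl4 (chr9:64173372-64173401, + strand): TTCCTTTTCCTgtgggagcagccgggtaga
Rps3 (chr7:99483695-99483724, − strand): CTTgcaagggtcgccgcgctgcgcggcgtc
Rplp0 (chr5:115559452-115559481, + strand): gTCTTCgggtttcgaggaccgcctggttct
The stretch of Rpl14 holds a run of 14 bases across its start. That of Rps19, the first of its 3 annotated starts, holds none longer than 4. The run of Rps21 is 7 bases, under the 8 counted above, and Rps21 and Rps24 each have a further annotated start outside a run. Rpl4 has a run of 11 that ends before its start.

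A looser search, for a run of 8 or more C or T anywhere from 50 bases before to the end of the window on the coding strand, matched 50 of 59 genes (84.7%). The same search matched 39.3% of all genes and 34.8% of the mitochondrial ribosomal protein genes. The letters CCGGAAG, the core of sites bound by ETS factors, occurred on either strand in 25 of 59 windows' genes (42.4%), against 9.93% of all genes and 37.7% of the mitochondrial set. AAGATGG, which lies within the motif of YY1, was found on either strand in 16.9%, 7.28% and 18.8%. The letters TATAAA at 20 to 40 bases before the start were found in 1 of the 59 (1.69%) and in 2.31% of all genes. These are matches of letters, and no binding was measured.

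The libraries were made with QuantSeq, which reads 1 fragment at the 3′ end of each mRNA, so that levels of different genes are compared without division by transcript length. The deposited values are log2 of CPM, the reads of a gene per M mapped reads, with everything under 1 CPM listed at 0. The spacing of the low values gave 10.1 to 19.6 M mapped reads per mouse, and the 81 genes together took 1.40 to 4.02% of them. In bulk tissue, fewer cells of a type and less RNA per cell cannot be told apart. Of the mice, 3 stood apart from the rest in the tissue they held. All 8 B cell markers were above the floor in vehicle replicates 6 and 8, with summed levels of 499 and 686 CPM against at most 9.87 CPM in any other mouse. The same libraries had the lowest adipocyte marker sums, 660 and 1451 CPM against 11916 to 40258 CPM. BDE-47 replicate 6 had a skeletal muscle marker sum of 111611 CPM against 49.7 to 235 CPM in the others, and luminal epithelial markers in that mouse and vehicle replicates 6 and 8 summed to 143, 41.2 and 189 CPM against at least 745 CPM elsewhere. Values without these mice are given for the results whose direction turned when they were left out.

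Ribosomal protein mRNAs were among the most abundant in the tissue. Their mean log2(CPM) over the 15 mice ranged from 1.81 to 10.18 with a median of 7.70, against a median of 3.31 over the 9506 genes above 0 in at least 7 mice. Of these 81 genes, 71 were above the floor in every mouse, with a median of 357 to 16087 reads per gene.

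Small-subunit genes led the order of levels. Rps14, a protein of the platform of the small subunit, had log2(CPM) values of 9.79 at the lowest, 10.03 at the median and 10.90 at the highest in vehicle mice, and 9.33, 10.09 and 10.97 with BDE-47. Rps21, another small-subunit protein, had 9.91, 10.14 and 10.93 in vehicle mice and 9.46, 10.13 and 10.29 with BDE-47. The stalk protein mRNA Rplp1 had a mean of 9.83 over all mice, Rps24 of 9.71 and Rpl4 of 9.66. The within-group SDs of these 5 genes were 0.32 to 0.56. Differences between neighbours in this order, which would be taken within each mouse, were not tested. Across the whole list the order was kept well from mouse to mouse. Spearman's rho between a mouse and the mean of the others over the 71 genes was 0.84 to 0.97, given as a description, since genes are not independent replicates.

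Some genes of the list were not detected in every mouse, and 10 of the 81 were listed at 0 in at least 1. Rpl26, a large-subunit protein, was at 0 in 6 of 15 mice and reached 7.45 in vehicle replicate 1 and 7.01 in BDE-47 replicate 7. Rpl13a was at 0 in 3 mice and reached 5.83. Rpl10a, at 0 in 4 mice, reached 6.18. These 3 genes and Rps3a3 had the largest within-group SDs, 2.91, 2.49, 2.34 and 2.47 log2 units. The remaining genes with a 0 were Rpl15, Rpl19, Rpl29, Rpl7l1, Rps27l and Rps4l. Just inside the limit of 7 mice was Rps3a3 with 8 mice, and just outside was Rpl39l with 3. Rpl24, which encodes a protein of the bridge between the subunits, was listed at 0 in all 15 mice, as were Rpl10l, Rpl6l and Rps3a2, while Rpl32l, Rpl3l and Rps12l1 were above 0 in 1 mouse each.

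Many of the genes have exact copies elsewhere in the genome, which bears on where their reads are placed. For each gene with a coding model in GENCODE M39, the last 250 coding bases were cut into overlapping stretches of 50, and each was searched in the GRCm39 genome outside the gene. For 41 of the 80 genes with a model every stretch had a copy elsewhere, and for 2 genes, Rpl4 among them, none had. The 9 genes with copies for fewer than 50% of their stretches had a median level of 9.62 on the log2 scale. The 30 with 50% to under 100% had 7.77, and the 41 with copies for all had 7.63. Spearman's rho between level and the share of copied stretches was -0.30 over 80 genes, a weak relation given as a description. Rps3, with 6.97% of its stretches copied, had a mean of 9.63, and Rpl24, with 100%, was at 0, but Rps12, also with 100% and a median of 14 copies, reached 9.28. How the authors placed reads that match several sites is not given in the sources used here, and 3′ untranslated sequence was not searched, so the part of these copies in the levels was not tested.

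**Figure D1:**
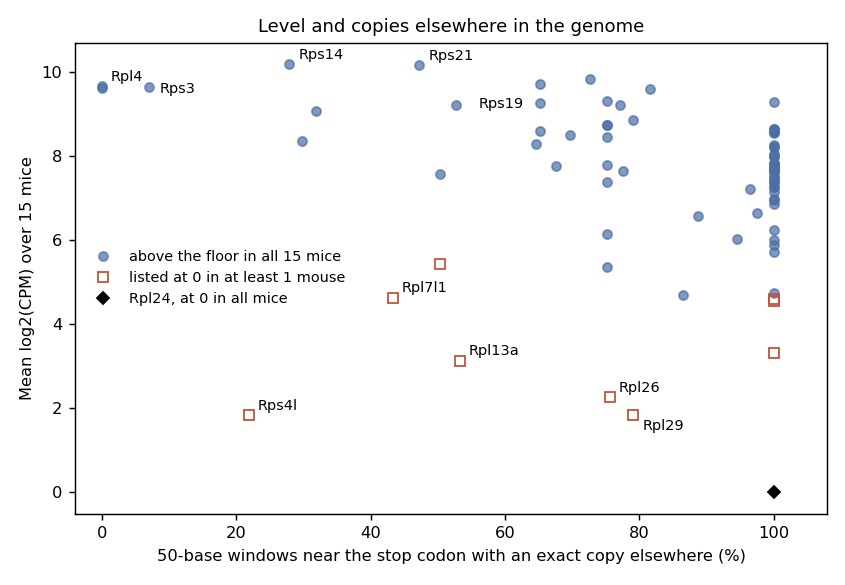
Mean log2(CPM) over 15 mice (vertical axis) of each ribosomal protein gene against the percentage of 50-base stretches of its last 250 coding bases with an exact copy elsewhere in the genome (horizontal axis). Rpl4 and Rps3 sit at the upper left, while genes at 100% span from 3.31 to 9.28 and Rpl24 lies at 0.

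Rows named as ribosomal protein pseudogenes were also measured. Of 277 such rows 90 were above 0 in some mouse, 29 in at least 7 mice and 11 in all 15. Rpl31-ps8 had the highest mean, 5.42 on the log2 scale, followed by Rpl14-ps1 with 5.15 and Rpl10-ps3 with 4.89. Rpl10-ps3 lay within 1 log2 unit of Rpl10 itself, whose mean was 5.71 and whose last coding bases had copies for 100% of stretches. Where parent and copy are identical, their reads cannot be told apart.

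The spread between mice was far above what the number of reads gives. For the 71 genes above the floor in all mice the median within-group SD was 0.54 log2 units, with a range of 0.31 to 1.79. The error expected from read number alone had a median of 0.025, and the spread was 10.2 to 50.7 times that error. This error covers counting only, since reads without molecular identifiers are not independent molecules, and each mouse gave a single library.

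At like levels these genes varied less between mice than the general run of genes. Among the 262 genes with a mean log2(CPM) of 7 to under 8, the median within-group SD was 0.70, and the 25 ribosomal protein genes in that bin had 0.56. Between 8 and 9 the values were 0.64 over 84 genes and 0.51 over 18 ribosomal protein genes. The larger sets include the ribosomal protein genes. Within the list SD fell with level (Spearman's rho -0.72 over 71 genes, a description), and the least variable were Rpl14, Rpl22, Rps21 and Rpl4 with 0.31, 0.31, 0.32 and 0.35.

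**Figure D2:**
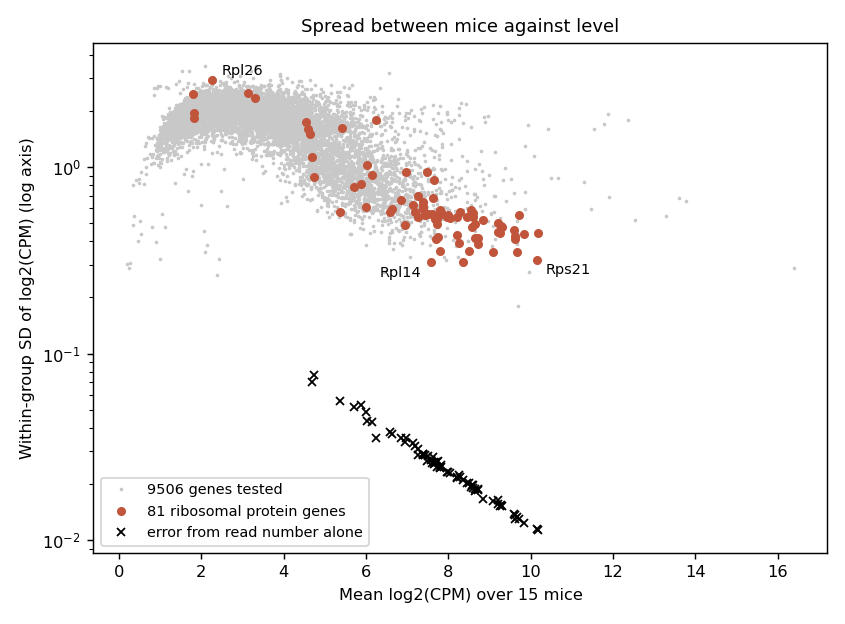
Within-group SD of log2(CPM) (vertical log axis) against mean log2(CPM) over 15 mice (horizontal axis) for 9506 genes in grey and 81 ribosomal protein genes in red, with the error expected from read number alone as crosses for 71 of them. The crosses lie between 0.011 and 0.076, and the red points lie at 0.31 or above.

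Of a list of 16 genes often used as references 14 were tested, with Rplp0, Rps18 and Rpl13a among them. Their median within-group SD was 1.11 at a median level of 6.59. The 81 ribosomal protein genes had 0.56 at a median level of 7.70. Single genes of both lists varied widely in spread. Rplp0, the scaffold of the stalk and itself a common reference, had a within-group SD of 0.35, the cytoplasmic actin Actb 0.87 and the glycolytic enzyme Gapdh 1.16. Rps18 had 0.65 and Rpl13a, another common reference that was above 0 in only 12 mice, 2.49. Among the translation genes the elongation factor Eef2 had the smallest SD, 0.18, at a mean level of 9.70. Gapdh reached 10.13 in BDE-47 replicate 6, the mouse with the skeletal muscle markers, and 4.91 to 7.09 elsewhere.

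The genes rose and fell together across mice. In vehicle mice the summed share of mapped reads was 1.98% at the lowest, 2.34% at the median and 4.02% at the highest, with a mean of 2.61% ± 0.72 (SD, n = 8). With BDE-47 it was 1.40%, 2.29% and 2.97%, with a mean of 2.31% ± 0.48 (SD, n = 7). The groups overlapped between 1.98% and 2.97%. Vehicle replicates 6 and 8, with the B cell markers, were highest at 4.02% and 3.40%, and BDE-47 replicate 6, with the muscle markers, was lowest. Without those 3 mice the order of the means turned, 2.24% ± 0.20 (SD, n = 6) in vehicle and 2.46% ± 0.30 (SD, n = 6) with BDE-47. Leaving out the highest vehicle mice and the lowest BDE-47 mouse moves the means in this direction by construction. The part of the other tissue in the shares of these mice was not tested.

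**Figure D3:**
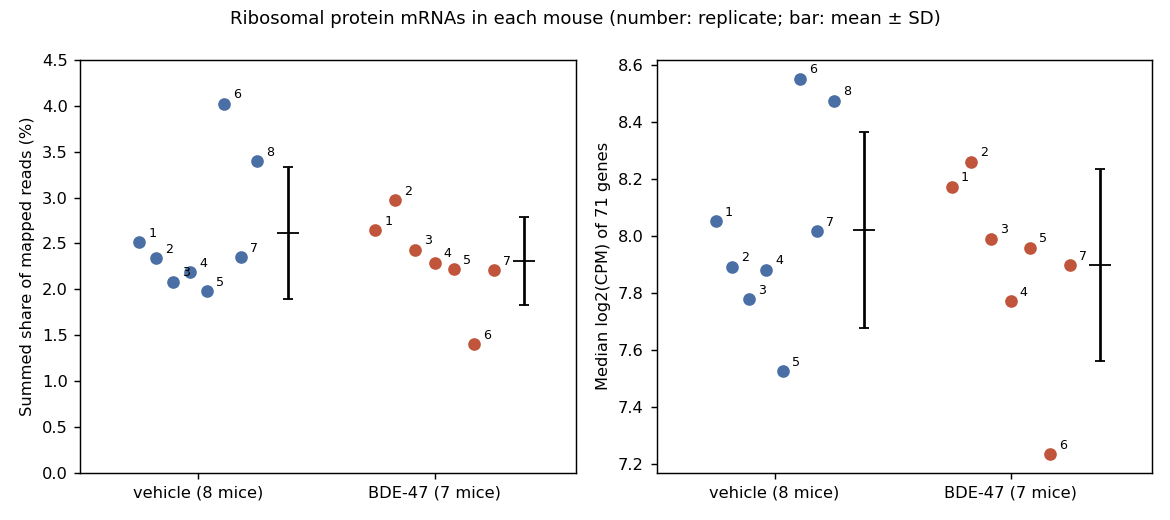
Left, summed share of mapped reads of the 81 genes in each mouse (percent); right, median log2(CPM) of the 71 genes above the floor in all mice. Points are mice numbered by replicate and bars are mean ± SD; vehicle replicates 6 and 8 lie highest and BDE-47 replicate 6 lowest in both panels.

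The shift of these mice ran through nearly the whole list. In vehicle replicate 6, 67 of the 71 genes lay above their own mean over the 15 mice, with a median deviation of 0.75 log2 units, and in vehicle replicate 8 64 did so, with a median of 0.51. In BDE-47 replicate 6 68 lay below, with a median of -0.74. Rpl22l1, a variant form of Rpl22, was among the exceptions, at 2.09 in vehicle replicate 6 and 3.12 in replicate 8, its lowest values, and so was Rps2, at 6.09 in BDE-47 replicate 6, near its highest of 6.36. The median deviation of all genes above the floor in every mouse, centred over mice, was -0.68 in BDE-47 replicate 6. In vehicle replicates 6 and 8 it was -0.02 and -0.10. In BDE-47 replicate 6 the general run of these genes was therefore low as well. Over all 15 mice the median Pearson r between pairs of the 71 genes was 0.45, and 90.1% of 2485 pairs were above 0. Without the 3 mice it was 0.15 and 66.8%. All 2577 genes above the floor in every mouse had medians of 0.025 and 0.011. These correlations are descriptions, and genes of 1 library share its depth and its tissue. After the median of the 71 genes was subtracted in each mouse, the SD was smaller for 65 of them. That median came from these same genes, so a smaller SD follows in part from their correlation. Other genes were not compared in this way.

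**Figure D4:**
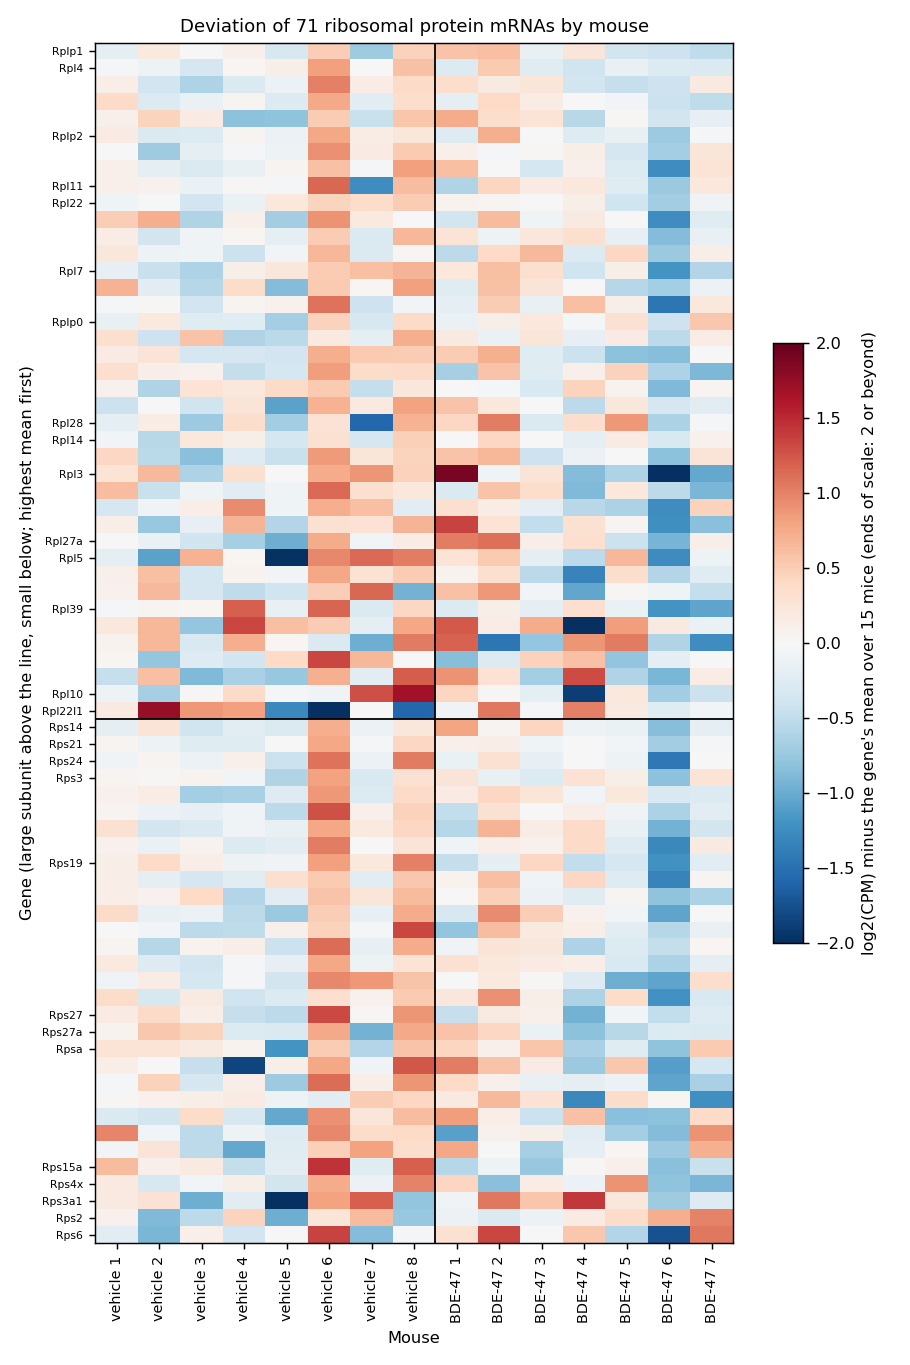
Deviation of log2(CPM) from each gene's own mean over 15 mice, in colour, for 71 ribosomal protein genes (rows, large subunit above the black line, names given for some) and 15 mice (columns, vehicle left of the line). The columns of vehicle replicates 6 and 8 are red in 67 and 64 rows, and that of BDE-47 replicate 6 is blue in 68.

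Against this spread no ribosomal protein mRNA passed the test between BDE-47 and vehicle. With limma, 0 of the 81 genes had a Benjamini-Hochberg adjusted p under 0.05, as had 0.0% of the 9506 genes tested, and the adjusted p of the 81 was 0.982 to 1.00. At an unadjusted p under 0.05, 1 gene was lower with BDE-47, against 2.71% of genes tested, and 0 were higher, against 1.94%. By sign alone 63 of 81 were lower (51 with median-of-ratios size factors), 35 of 47 in the large and 28 of 34 in the small subunit. Over all genes tested 4835 of 9506 were lower (4466 with median-of-ratios size factors). These counts are descriptions, since genes that vary together across mice are not independent. The median log2 difference was -0.18 over the 81 genes and -0.02 over all genes tested. With standard errors of 0.26 to 0.69 for the 71 genes above the floor in every mouse, the differences of these genes were -0.84 to 0.60.

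The direction of the list changed when the 3 mice named above were left out. These were the vehicle mice with the highest summed shares, 4.02% and 3.40%, and the BDE-47 mouse with the lowest, 1.40%. Leaving them out therefore tends to raise the differences of these genes by construction, and the counts without them are descriptions. Without vehicle replicates 6 and 8 alone, 44 of the 81 genes were lower and 37 higher, against 5076 of 9506 genes tested lower. The median difference was then -0.02 over the 81 genes and -0.07 over all genes. Without vehicle replicates 6 and 8 and BDE-47 replicate 6, an alternative chosen after the data were seen, 31 of the 81 genes were lower and 50 higher. Over all genes tested 4755 of 9506 were lower. The median difference was 0.09 over the 81 genes, against -0.00021 over all genes. Of the 63 genes lower with all mice, 33 were higher without the 3. In that fit 0 of the 81 passed the adjusted threshold (0.021% of all genes did). At an unadjusted p under 0.05 0 were lower, against 2.49%, and 2 were higher, against 2.19%. Without BDE-47 replicate 6 alone the median was -0.07 and 48 of the 81 genes were lower, against 4575 of 9506 genes tested. Another scaling shifted all genes. With median-of-ratios size factors the median over all genes moved from -0.02 to 0.07 and that of the 81 genes was -0.08. Of the 81, 51 were lower and 30 higher, against 4466 of 9506 genes tested lower.

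**Figure D5:**
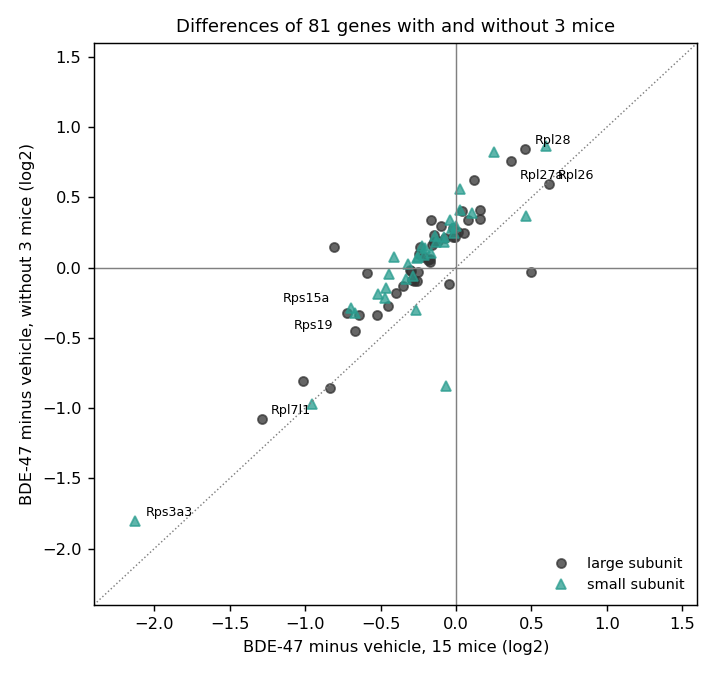
Difference of mean log2(CPM), BDE-47 minus vehicle, of the 81 genes with all 15 mice (horizontal axis) and without vehicle replicates 6 and 8 and BDE-47 replicate 6 (vertical axis); circles are large-subunit and triangles small-subunit genes, and the dotted line marks equal values. Of the points 73 lie above the dotted line, and 50 of 81 lie above 0 on the vertical axis against 18 on the horizontal. Leaving out mice with extreme summed shares tends to lift points above the dotted line by construction.

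Rps19, whose loss in humans causes Diamond-Blackfan anaemia, had the smallest p. The gene lies at chr7:24884592-24889811 on GRCm38.p6. Its log2(CPM) was 9.15 at the lowest, 9.43 at the median and 10.26 at the highest in vehicle mice and 8.05, 8.93 and 9.67 with BDE-47. The groups overlapped, and vehicle replicates 6 and 8 were the highest mice and BDE-47 replicate 6 the lowest. The difference was -0.67 ± 0.29 (SE; n = 7 and 8), with a limma p of 0.029 and an adjusted p of 0.982, and the exact permutation test gave p = 0.00932, two-sided. Without the 3 mice the difference was -0.33 and the limma p 0.175.

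Of the other genes with the smallest p among those lower, Rps15a, a small-subunit protein, had 6.73, 7.34 and 8.64 in vehicle mice and 6.37, 6.75 and 7.30 with BDE-47. Vehicle replicates 6 and 8 were again highest, the groups overlapped, and the difference was -0.69 ± 0.39 (SE). The exact permutation test of Rps15a gave p = 0.0356, while the limma p was 0.083 and the adjusted limma p 0.982. Without the 3 mice the difference of Rps15a was -0.29 and the limma p 0.436. Only these 2 of the 81 genes had an exact p under 0.05, both lower with BDE-47, a direction in which 2.56% of the genes tested had one, and 0 of the 81 were higher, against 1.86%. The pseudogene row Rps3a3 differed by -2.13 ± 1.10 (SE) and Rpl7l1, a variant of Rpl7 that works in ribosome assembly, by -1.29 ± 0.75 (SE). Both had mice at 0, and without BDE-47 replicate 7 the difference of Rpl7l1 was -0.63.

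On the higher side, Rpl28, a large-subunit protein with no counterpart in yeast, had 6.06, 7.61 and 8.32 in vehicle mice and 6.99, 7.99 and 8.65 with BDE-47. The groups overlapped, with vehicle replicate 7 lowest. Its difference was 0.46 ± 0.39 (SE), with an adjusted limma p of 0.982, and 0.27 without that mouse. Without the 3 mice Rpl28 differed by 0.84 ± 0.35 (SE), with an adjusted limma p of 0.968. Rpl27a, also of the large subunit, had a difference of 0.36 with all mice and 0.76 without the 3, with an adjusted limma p of 0.968. These 2 were the genes with an unadjusted p under 0.05 in the fit without the 3 mice. Rps3a1 and Rps2 of the small subunit differed by 0.60 and 0.46 with all mice, and Rps3a1 by 0.25 without vehicle replicate 5.

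Ribosomal proteins with a second role outside the ribosome did not pass the test either. Rps6, the substrate of S6 kinase by which mTORC1 activity is read, was low for a ribosomal protein mRNA. It had 3.83, 4.63 and 6.10 in vehicle mice and 3.01, 5.06 and 6.09 with BDE-47, with copies elsewhere for 100% of its stretches. Rpl5 and Rpl11, which bind Mdm2 when ribosome assembly fails and so stabilise p53, differed by -0.16 ± 0.46 and -0.15 ± 0.34 (SE). Both turned without the 3 mice, to 0.34 and 0.23. Rps27a, a fusion of ubiquitin and a ribosomal protein, differed by -0.29. Rpsa, also known as the laminin receptor, and Rps3, which has been tied to DNA repair, differed by -0.02 and -0.08, and by 0.28 and 0.22 without the 3 mice. With all mice each of these genes had an adjusted limma p of at least 0.993.

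The stalk genes were among the steadier ones. Rplp0 had 7.12, 7.60 and 8.25 in vehicle mice and 7.37, 7.90 and 8.32 with BDE-47, a difference of 0.16 ± 0.34 (SE). Rplp1 differed by -0.01 ± 0.28 (SE) and Rplp2 by -0.19 ± 0.30 (SE). Rplp1 and Rplp2 differed by 0.22 and 0.05 without the 3 mice. Groups overlapped for all 3, as they did for each of the 81 genes, and 0.0105% of the genes tested had groups that did not.

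Paralogs lay below the genes they resemble, except for Rpl3l in BDE-47 replicate 6. With all values on the log2(CPM) scale, Rpl22l1 was 4.03 ± 1.72 log2 units below Rpl22 in vehicle mice (SD, n = 8) and 3.28 ± 0.46 below with BDE-47 (SD, n = 7). The gap was widest in vehicle replicates 6 and 8, at -6.72 and -5.75, and between -5.18 and -1.93 in the other vehicle mice, which averaged 3.29 ± 1.19 below (SD, n = 6). The difference of Rpl22l1 itself was 0.50 with all mice and -0.04 without the 3. The exact permutation test of the gap gave p = 0.288, two-sided. Rps27l, a p53 target, was 2.42 ± 0.93 below Rps27 in vehicle mice and 2.86 ± 2.26 below with BDE-47 (exact permutation p = 0.754). In BDE-47 replicate 7 Rps27l was listed at 0, and the other BDE-47 mice averaged 2.04 ± 0.68 below (SD, n = 6), so the order of the groups turned without it. Rpl3l, the form of Rpl3 that striated muscle uses, was at 0 in 14 of 15 mice and at 8.64 in BDE-47 replicate 6, where Rpl3 had its lowest value, 5.24. In the other mice Rpl3 was 6.44 to 9.36. Rpl10l, a testis form, was listed at 0 throughout. Rps4l, at 0 in 6 mice, reached 4.61 and Rps4x 7.63.

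Other genes of translation were set beside them from lists chosen for this purpose. Of 20 elongation factors and other TOP mRNAs, 0 were lower or higher at an unadjusted p under 0.05. Over all genes tested 2.71% were lower and 1.94% higher at that p. The median difference of the 20 was -0.08. That median was 0.13 without the 3 mice, with 6 lower and 14 higher, against 4755 of 9506 genes tested lower. The elongation factor Eef2 had 9.44, 9.79 and 9.99 in vehicle mice and 9.43, 9.77 and 9.86 with BDE-47. Of 24 initiation factors 0 passed at that p either, with a median difference of 0.14, and 0.19 without the 3 mice. Of 19 regulators of mTORC1 and TOP mRNAs tested, among them Larp1, Mtor and Rps6kb1, 0 did, and their median difference was -0.40 at a median within-group SD of 1.70, and -0.66 without the 3 mice.

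Genes that build ribosomes gave 1 call in each direction at an unadjusted p under 0.05 among 29 tested. Over all genes tested 2.71% were lower and 1.94% higher at that p. Wdr43, a factor of small-subunit assembly, differed by 2.20 ± 0.75 (SE) and Sbds, which releases Eif6 from the large subunit, by -1.91 ± 0.74 (SE), both with an adjusted limma p of 0.982. Of 70 mitochondrial ribosomal protein genes, which serve the separate ribosome of mitochondria, 2 were lower and 2 higher at an unadjusted p under 0.05. The shares over all genes tested were again 2.71% and 1.94%, and the median difference of these 70 was -0.02. Without the 3 mice their median was -0.08 and that of the cytosolic genes 0.09, a difference that was not tested. Of the ribosomal proteins outside the name rule, Fau, a fusion of a ubiquitin-like and a ribosomal protein, had a mean of 7.74 and Rack1, a scaffold on the small subunit, 9.28.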

How the data were processed

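Mammary tissue of 15 mice was measured, 1 QuantSeq 3′ FWD library per mouse, and groups came from the sample labels. Per the submitters' processing notes, reads were mapped with STAR 2.5.3a and the build was GRCm38. Each file as deposited holds log2(CPM) per gene, and genes under 1 CPM are listed at 0, as the values themselves show. Of 52636 entries, 110 that repeat a gene name were dropped, which removed no ribosomal protein gene. Depth was recovered from the spacing of low values, which were whole reads within 0.1 read. Intervals of read number cover counting error only.

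The 9506 genes above 0 in at least 7 mice were compared in limma 3.58.1, with its moderated test and a variance trend, in R 4.3.3 and adjusted by Benjamini-Hochberg. Single genes were also tested with the exact two-sided permutation test over all 6435 choices of 7 of 15 mice, whose smallest p is 0.000155. The xenograft covariate used by the authors is not in the labels and was not used. The genes, lists and alternatives were chosen with earlier results of these data known. Named genes are the 5 with the highest mean, the 4 with the smallest limma p in each direction, the 4 with the largest and smallest SD, set paralog pairs, genes with second roles, and those next to the limit of 7 mice. Eef2, Wdr43, Sbds and the reference genes with values were picked after their values were seen. Copies were searched in GRCm39 with GENCODE M39, in 1 principal transcript per gene. Start sequences are RefSeq's. The scripts were tested on simulated data. Python 3.11.15 with numpy 2.4.6, pandas 2.3.3 and scipy 1.17.1 was used. Alternatives were log2(CPM + 1), log2(CPM + 0.1), a mean of at least 1, no filter, median-of-ratios factors, CPM without Gm42418, the replicate number as a block, and mice left out. A few genes are not reported here.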

Additional observations from a re-analysis of the deposited data

Results flagged for a closer look

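Of 77 sets of values (named genes, the summed share and the median level, each within a group), 9 had a mouse whose gap to its nearest neighbour took an unusual part of the group's range. For independent normal values about 1 in 20 sets would have one. That rate does not hold here, since the sets share mice and a set with 1 mouse alone above 0 is flagged by construction. BDE-47 replicate 6, with skeletal muscle markers, was low for Rps21 at 9.46 (next 10.06) and for Rps24 at 8.28 (next 9.55), and was the only mouse above 0 for Rpl3l, at 8.64. Vehicle replicate 6, with B cell markers, was high for Rps6 at 6.10 (next 4.85). BDE-47 replicate 2 was high for Rpl4 at 10.19 (next 9.51). BDE-47 replicate 4 was high for the pseudogene row Rps3a3 at 4.34 (next 0.37). Rps27l was listed at 0 in BDE-47 replicate 7, with the next mouse at 4.78. Rpl39l was 2.06 in vehicle replicate 1 and 0.79 in BDE-47 replicate 3, with 0 or 0.25 next to them. All values are log2(CPM), and their causes were not tested.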

How the results depend on the processing

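No ribosomal protein gene passed the adjusted threshold under any setting run. The count at an unadjusted p under 0.05, 1 as reported, was 2 without a filter and 0 with median-of-ratios factors, with CPM without Gm42418, with scaling to the median of these genes (chosen after seeing the data) and without vehicle replicates 6 and 8. It was 2, both higher, without those and BDE-47 replicate 6. With each mouse left out it was 0 to 3, and it was 0 without vehicle replicate 6 or BDE-47 replicate 6. The median difference was -0.26 to -0.07 with each mouse left out and turned to 0.093 without the 3 mice. The difference of the summed shares, -0.30 percentage points, was -0.41 to -0.10 with each mouse left out, 0.07 without vehicle replicates 6 and 8 and 0.22 without the 3 mice. Leaving out these 3 mice, which had the extreme shares of their groups, raises that difference by construction. With group means removed, mice of the same replicate number correlated weakly (r of -0.018 to 0.053 over 7 pairs). Still, 4 of the 7 BDE-47 mice correlated best with the vehicle mouse of their own number. Whether the numbers reflect a pairing or a shared batch was not tested. With the replicate block, which leaves vehicle replicate 8 without a partner, the count was 1 and the median -0.14. Of 630 recomputed differences of 35 named genes, 586 kept their direction. The 44 others belong to 9 genes. Those settings do not include the fit without the 3 mice, where 12 of the 35 turned: Rps14 to 0.30, Rps21 0.10, Rplp1 0.22, Rps24 0.077, Rpl7 0.093, Rpl22l1 -0.035, Rps4x 0.025, Rpl5 0.34, Rpl11 0.23, Rplp2 0.055, Rpsa 0.28 and Rps3 0.22. With median-of-ratios factors Rps14 was 0.090, Rplp1 0.083, Rps4l 0.068, Rpsa 0.069 and Rps3 0.0091, and with the replicate block Rps14 was 0.030, Rplp1 0.055 and Rpsa 0.055. With each mouse left out, Rps14 was -0.13 to 0.14, Rplp1 -0.11 to 0.075, Rpl26 -0.12 to 1.40, Rpl14 -0.022 to 0.12, Rps4l -0.40 to 0.33, Rpl5 -0.46 to 0.030, Rpl11 -0.34 to 0.0049, Rpsa -0.20 to 0.11 and Rps3 -0.17 to 0.046. The causes were not tested.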
